A study of Mus musculus with 19 samples.

Results

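Autosomal recessive primary microcephaly (MCPH) is a disorder in which the cerebral cortex is small at birth, and many of its known genes encode proteins of the centrosome, the spindle pole or the kinetochore. The 10 genes followed here, *Cep63*, *Cep152*, *Stil*, *Cenpj*, *Cep135*, *Cdk5rap2*, *Wdr62*, *Aspm*, *Knl1* and *Mcph1*, were chosen by name as MCPH genes, out of 51912 genes counted in each library, and all 10 passed the filter on low counts in every comparison. They were measured by unique molecular identifier (UMI) RNA-seq of E13.5 mouse cortex, dissected as neocortical tissue, on a mixed C57BL/6 and 129 background. The method was Click-seq, which tags each cDNA molecule so that amplified copies can be collapsed. The 19 libraries comprised 7 controls (ctrl), whose alleles the labels give only as control, 5 *Emx1*-Cre conditional mutants with floxed *Ino80* (cKO-E) and 7 *Emx1*-Cre double mutants with floxed *Ino80* and *Trp53* (dKO-E). *Ino80* encodes the ATPase of a chromatin remodelling complex, *Trp53* encodes p53, and *Emx1*-Cre recombines in cortical neural progenitor cells (NPCs) and their progeny but not in interneurons, microglia or endothelium, which remained in the dissected tissue.

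The libraries held between 820915 and 8095810 deduplicated counts in genes, with a median of 2952788. The ctrl libraries came from 4 litters, cKO-E from 5 and dKO-E from 2, and since cKO-E and dKO-E shared no litter, litter and genotype cannot be told apart between the mutants. Batch 1 and batch 2 each held all 3 groups, batch 3 held 1 dKO-E library only, and the sexes were uneven, with 4 females and 3 males in ctrl, 4 and 1 in cKO-E and 2 and 5 in dKO-E. *Ino80* itself measured 122 ± 8.73 CPM (counts scaled to library size; SD, n = 7) in ctrl, 167 ± 14.8 (n = 5) in cKO-E and 187 ± 13.8 (n = 7) in dKO-E. These are counts over the whole gene, of which the conditional allele removes only some exons, so they do not check the deletion. *Trp53* measured 43.9 ± 5.21, 39.5 ± 4.68 and 34.8 ± 4.96 CPM. Of the markers that define cortical cells, *Pax6*, *Nes*, *Eomes* and *Neurod6* were counted in the libraries, while *Sox2* and *Tubb3*, which lie within larger annotated genes, were listed at 0 in all 19.

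Centrioles are copied once per cell cycle, and the pair sits at the centre of the centrosome, the main microtubule organiser of dividing cells. CEP63 and CEP152 form a ring around the mother centriole that recruits the kinase PLK4, STIL and CENPJ build the new centriole beside it, and CEP135 belongs to its cartwheel core. CDK5RAP2 anchors γ-tubulin complexes in the surrounding pericentriolar material, WDR62 and ASPM act at spindle poles during mitosis, KNL1 is the kinetochore scaffold that couples chromosomes to microtubules, and MCPH1 restrains premature chromosome condensation. In the embryonic cortex the apical progenitors divide with their spindle poles close to the ventricular surface, and mutations in these genes reduce the number of neurons these progenitors yield.

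In ctrl cortex the 10 genes fell into 3 tiers once counts were divided by exon length, expressed as CPM per kb of merged exon. *Mcph1* was highest at 26.4 ± 2.68 CPM per kb (SD, n = 7), followed by *Aspm* at 23.3 ± 2.26, *Cdk5rap2* at 22.0 ± 2.05 and *Knl1* at 21.6 ± 2.44. The middle tier held *Cenpj* at 13.2 ± 1.18, *Cep152* at 12.4 ± 1.93, *Stil* at 11.6 ± 1.49 and *Cep135* at 10.1 ± 1.06 CPM per kb. *Cep63* at 4.97 ± 0.558 and *Wdr62* at 4.67 ± 0.708 CPM per kb were lowest. Neighbours within a tier had overlapping ranges over the 7 libraries, and the ranges were separate only between *Knl1* and *Cenpj* and between *Cep135* and *Cep63*.

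**Figure D1:**
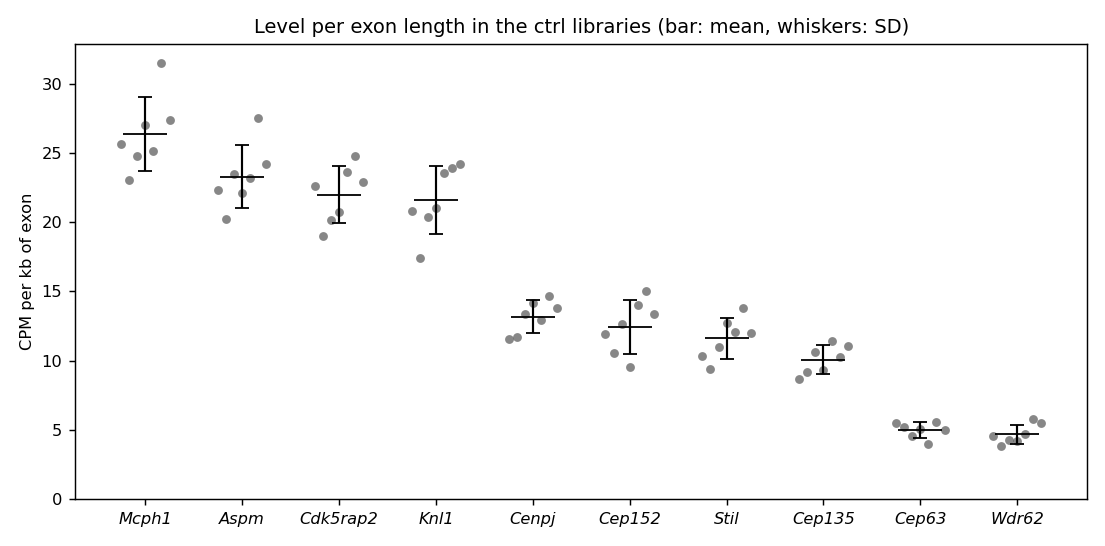
Level of the 10 MCPH genes in the 7 ctrl libraries, in CPM per kb of merged exon (y axis), with genes in descending order of their mean (x axis). Points are libraries, bars are means and whiskers are SD. The means fall from 26.4 for *Mcph1* to 4.67 for *Wdr62*, with gaps after *Knl1* and after *Cep135*.

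The RefSeq table (GRCm38.p6) held a promoter window for 9 of the 10 genes, all but *Mcph1*. The start regions of 5 of them are printed here as examples. *Stil* and *Wdr62*, which were called between the mutants, and *Cenpj* and *Cep63* are not printed. Any link between these sequences and the levels was not tested. Each line below gives 200 bases 5′ to 3′ on the gene's own strand, 170 before and 30 from the annotated start, at chr2:125625084-125625283 (minus strand) for *Cep152*, chr5:76588529-76588728 (plus) for *Cep135*, chr4:70410406-70410605 (minus) for *Cdk5rap2*, chr1:139454603-139454802 (plus) for *Aspm* and chr2:119046949-119047148 (plus) for *Knl1*. Capitals mark CCAAT boxes (CCAAT, or ATTGG on the other strand), the cell cycle genes homology region or CHR (TTTGAA), E2F sites (TTTCCCGC or TTTGGCGC) and YY1 sites (AAGATGGC), each searched on both strands. Only matches that lie wholly within the 200 bases are marked. The CHR of *Cdk5rap2* (base 27) runs past the end and is unmarked. The CHR of *Knl1* (base 32) and the *Cep152* boxes at bases -212 and -195 lie outside.
Cep152: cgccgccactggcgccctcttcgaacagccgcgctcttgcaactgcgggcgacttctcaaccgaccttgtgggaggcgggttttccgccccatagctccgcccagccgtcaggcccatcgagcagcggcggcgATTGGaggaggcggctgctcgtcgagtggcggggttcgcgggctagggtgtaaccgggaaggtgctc
Cep135: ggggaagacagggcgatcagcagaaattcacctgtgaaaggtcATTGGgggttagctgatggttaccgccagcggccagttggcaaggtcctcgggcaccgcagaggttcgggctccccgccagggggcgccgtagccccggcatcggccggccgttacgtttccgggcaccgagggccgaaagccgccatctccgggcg
Cdk5rap2: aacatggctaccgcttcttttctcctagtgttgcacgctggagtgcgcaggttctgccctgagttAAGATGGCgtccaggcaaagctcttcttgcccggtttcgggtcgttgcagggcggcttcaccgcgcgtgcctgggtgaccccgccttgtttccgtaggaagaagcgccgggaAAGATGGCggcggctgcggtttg
Aspm: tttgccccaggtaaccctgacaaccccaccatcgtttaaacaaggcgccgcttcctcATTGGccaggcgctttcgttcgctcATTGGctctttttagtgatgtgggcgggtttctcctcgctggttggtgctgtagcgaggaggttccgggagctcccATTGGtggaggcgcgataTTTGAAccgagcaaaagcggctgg
Knl1: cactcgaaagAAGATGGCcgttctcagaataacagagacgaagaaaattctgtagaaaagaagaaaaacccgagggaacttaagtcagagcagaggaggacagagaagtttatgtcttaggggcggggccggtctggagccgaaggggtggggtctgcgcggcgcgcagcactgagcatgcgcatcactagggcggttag

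In the full window of 250 bases before to 50 after the start, CCAAT occurred in 5 of the 9 genes (*Cep152*, *Stil*, *Cep135*, *Wdr62*, *Aspm*), against 37.9% of all 27025 windows and 39.4% of the 9142 windows of genes tested. The CHR letters, which in many mitotic genes lie next to the start, occurred in 3 of 9 (*Aspm* at base 7, *Cdk5rap2* at base 27 and *Knl1* at base 32 after the start), against 18.1% of all windows and 11.4% of those of genes tested. *Aspm* alone combined a CHR with CCAAT boxes, at bases -113, -88 and -12. The YY1 letters were found in *Cdk5rap2* (bases -105 and 8) and *Knl1* (base -160), against 2.88% of all windows and 4.98% of those of genes tested, and an E2F site only in *Wdr62* (base 4), against 1.63% and 3.36%. YY1 is a DNA-binding partner of the INO80 complex. The matches are of letters only, and 0 of them overlapped.

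The first comparison asked how deletion of *Ino80* alone was accompanied by changes in the MCPH genes. In cKO-E, *Aspm*, *Cep135* and *Cdk5rap2* were lower than in ctrl by 17.1% to 23.2%, and no member was higher. None of the 10 passed the study's false discovery rate (FDR) of 0.001, which 3.38% of the 11660 genes tested passed in either direction, whereas 3 fell at an FDR of 0.05, against 9.88% of all genes tested (7.31% of all genes rose). At an unadjusted p below 0.05 there were 4, against 29.8% of all genes. Scaling by total counts in place of trimmed means (TMM) moved the split over all genes at 0.05 from 1152 lower and 852 higher to 910 and 1068, with 3 members lower and 0 higher in both. The median log2 fold change of the 10 genes was -0.20, beside 0.02 over all genes tested, with 8 of 10 below 0. All values below are from edgeR's quasi-likelihood test with Benjamini-Hochberg adjustment over all genes tested. Since undivided tissue was measured, fewer cells of a type and less RNA per cell cannot be told apart.

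Among the genes of centriole assembly, *Cep135* stood lowest relative to ctrl. In ctrl it ranged from 62.0 CPM through a median of 73.6 to 82.2, and the 5 cKO-E libraries A to E gave 52.5, 58.9, 47.0, 47.2 and 63.9. Of the cKO-E libraries 4 lay below every ctrl library, and only cKO-E E overlapped. *Cep135* thus fell by 0.38 on the log2 scale (SE 0.09, 95% interval -0.58 to -0.18, adjusted p = 0.00951). *Cenpj* ranged from 56.3 through 65.0 to 71.3 CPM in ctrl and gave 62.4, 63.7, 49.5, 46.0 and 55.7 in cKO-E. Its groups overlapped through cKO-E A and B, and the difference of -0.17 on the log2 scale (SE 0.09, adjusted p = 0.238) did not pass. *Stil* ranged from 54.3 through 69.4 to 80.1 CPM in ctrl and gave 54.5, 56.1, 56.5, 67.1 and 70.0 in cKO-E, all inside the ctrl range, and differed by -0.14 on the log2 scale (SE 0.10, adjusted p = 0.361). The ring proteins were closest to their ctrl level. *Cep152* gave 71.4, 68.6, 70.5, 63.4 and 79.8 CPM in cKO-E, inside the ctrl range of 55.0 to 86.5 around a median of 72.7. *Cep63* gave 45.2, 58.4, 37.4, 47.2 and 46.9 CPM, straddling the ctrl range of 38.1 to 53.4 around a median of 48.7. Their log2 fold changes were 0.02 (95% interval -0.19 to 0.23, adjusted p = 0.939) and -0.03 (-0.25 to 0.20, adjusted p = 0.917).

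At the pericentriolar material and spindle pole, *Aspm* was the one gene whose groups did not overlap. It ranged from 234 CPM through a median of 269 to 319 in ctrl, while cKO-E A to E gave 214, 207, 171, 229 and 225. All 5 cKO-E libraries lay below all 7 ctrl libraries, a separation that 8.77% of all genes tested showed in one direction or the other. *Aspm* fell by 0.37 on the log2 scale (SE 0.08, 95% interval -0.54 to -0.20, adjusted p = 0.00439). With edgeR's likelihood ratio test, the one the study used, and with DESeq2 it passed the FDR of 0.001 (adjusted p = 0.000608 and 0.000407). *Cdk5rap2* ranged from 247 CPM through 294 to 322 in ctrl and gave 226, 244, 221, 242 and 248 in cKO-E. Only ctrl B and cKO-E E met, and *Cdk5rap2* fell by 0.27 on the log2 scale (SE 0.07, 95% interval -0.42 to -0.13, adjusted p = 0.0110). *Wdr62*, the least abundant of the 10 with 12 to 193 counts per library, ranged from 22.0 CPM through 26.0 to 33.1 in ctrl and gave 31.9, 18.4, 19.1, 14.9 and 23.4 in cKO-E. The highest and the lowest cKO-E library differed by more than the whole ctrl range, and at -0.23 on the log2 scale (SE 0.16, adjusted p = 0.356) the gene did not pass.

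The kinetochore scaffold gene *Knl1* ranged from 149 CPM through 179.7 to 207 in ctrl and gave 155, 146, 129, 163 and 180.4 in cKO-E. Only cKO-E B and C lay below the lowest ctrl library, and at -0.25 on the log2 scale (SE 0.09, adjusted p = 0.0693) it missed an FDR of 0.05. It passed 0.05 without ctrl B or without cKO-E E, with an adjusted p down to 0.0161, and with batch (adjusted p = 0.0112) or sex (adjusted p = 0.0287) as a covariate or with no filter on low counts (adjusted p = 0.0456). *Mcph1* gave 227, 213, 201, 219.9 and 212 CPM in cKO-E, all above its ctrl median of 200.4 and inside its ctrl range of 180.1 to 246. The difference was 0.06 on the log2 scale (SE 0.07, adjusted p = 0.612).

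**Figure D2:**
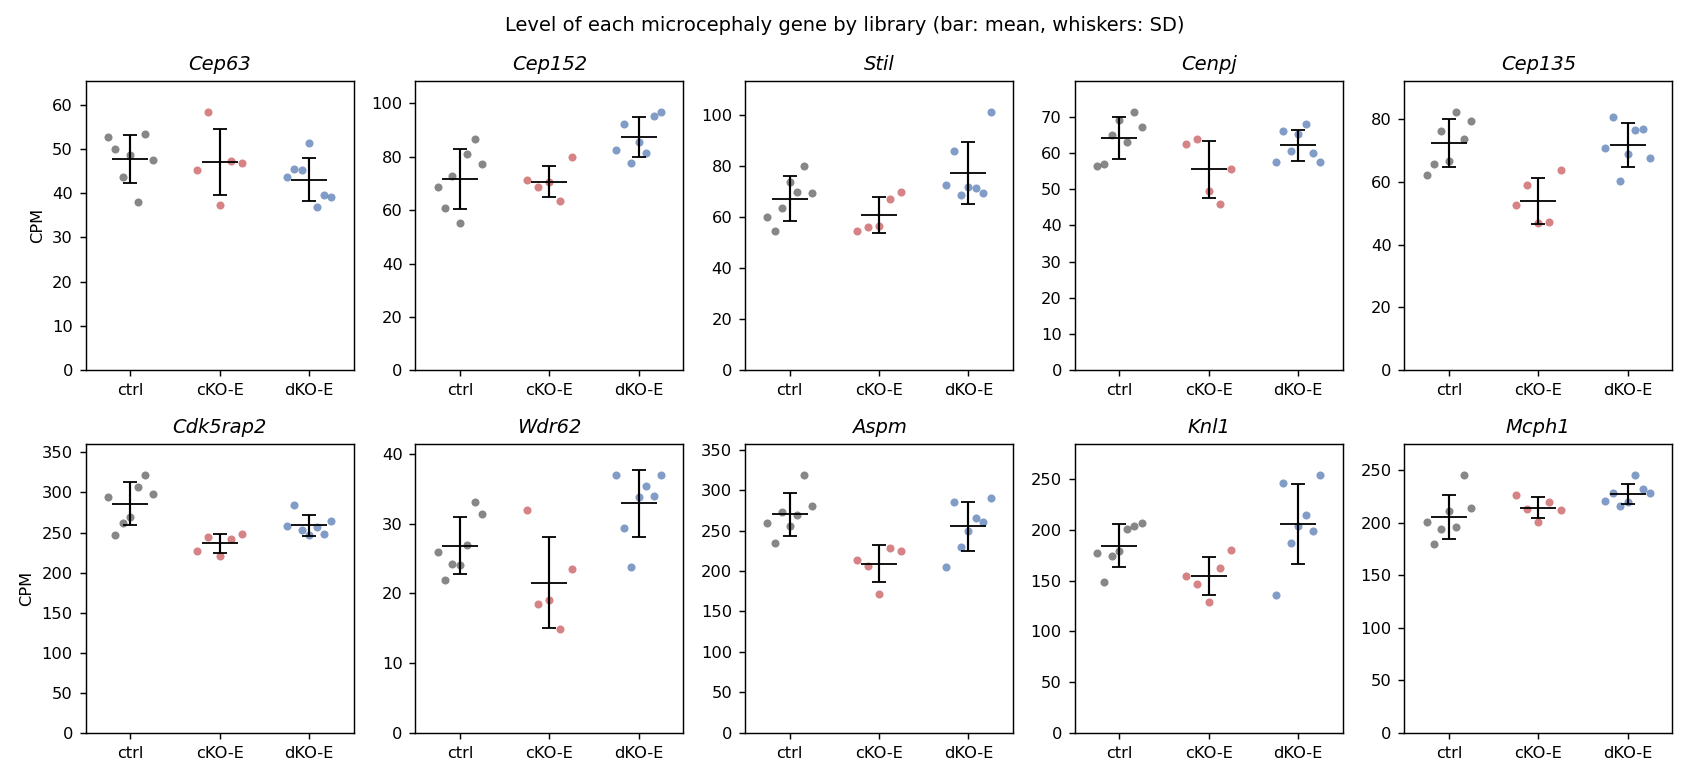
CPM of each MCPH gene (y axis, from 0, a separate scale per gene) in every ctrl, cKO-E and dKO-E library (x axis). Points are libraries, bars are means and whiskers are SD. For *Aspm* the cKO-E libraries, at 171 to 229 CPM, all sit below the ctrl libraries, at 234 to 319, while *Cep152* is highest in dKO-E, at 77.8 to 96.8.

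These 3 genes were also lower within each batch and within litters. In batch 1 (4 ctrl, 3 cKO-E) the log2 fold changes were -0.38 for *Aspm* (adjusted p = 0.00622), -0.36 for *Cep135* (adjusted p = 0.0269) and -0.23 for *Cdk5rap2* (adjusted p = 0.0477). In batch 2 (3 ctrl, 2 cKO-E) they were -0.36, -0.41 and -0.33, with adjusted p = 0.0637, 0.129 and 0.0545. With litter as a block, which draws on the 3 litters that held both genotypes (5 ctrl, 3 cKO-E), *Cep135* and *Cdk5rap2* were at -0.42 (adjusted p = 0.0145) and -0.28 (adjusted p = 0.0387). In that fit *Aspm* fell by 0.48 and passed the FDR of 0.001 (adjusted p = 0.000987), and *Knl1* (-0.33, adjusted p = 0.0254) and *Wdr62* (-0.42, adjusted p = 0.0455) passed 0.05. Leaving out any 1 of the 12 libraries left the 3 genes below an adjusted p of 0.05, at no more than 0.0140 for *Aspm*, 0.0359 for *Cep135* and 0.0390 for *Cdk5rap2*. Without cKO-E D, the library under 1500000 counts in this comparison, the adjusted p were 0.00537, 0.0195 and 0.0170.

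The second comparison set dKO-E against ctrl, asking which differences remained when *Trp53* was deleted as well. In dKO-E, *Cep152* was higher than in ctrl by 22.1% and no other member passed. At the FDR of 0.001 again 0 of 10 were called, against 2.58% of the 11381 genes tested. At 0.05, 1 rose and 0 fell, against 15.5% of all genes called in either direction, and 4 had an unadjusted p below 0.05, against 29.6% of all genes. At 0.001 the likelihood ratio test and DESeq2 also called 0 members. Scaling by total counts turned 1139 lower and 620 higher genes into 694 and 1783, and 1 member higher into 3. The median log2 fold change was 0.06, beside 0.01 over all genes tested. No member's groups were fully apart, which 4.44% of all genes were.

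*Cep152* ranged from 77.8 CPM through a median of 85.6 to 96.8 in dKO-E. All 7 dKO-E libraries lay above the ctrl median of 72.7 and 3 lay above every ctrl library. *Cep152* rose by 0.29 on the log2 scale (SE 0.09, 95% interval 0.10 to 0.47, adjusted p = 0.0325). This call rested on single libraries, since it was lost without ctrl A, B or D or without dKO-E B, D or F, with adjusted p up to 0.0729. In batch 1 *Cep152* was higher by 0.38 (adjusted p = 0.0193), in batch 2 by 0.23 (adjusted p = 0.362), and with the litter block, which rests on 1 shared litter, by 0.37 (adjusted p = 0.106). Without the dKO-E libraries under 1500000 counts, E and G, its adjusted p was 0.0648.

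*Aspm* and *Cep135*, lower in cKO-E, measured close to ctrl in dKO-E. *Aspm* ranged from 204 CPM through 261 to 290.4 in dKO-E, with 5 of 7 libraries below the ctrl median, and its log2 fold change was -0.09 (95% interval -0.25 to 0.07, adjusted p = 0.452). *Cep135* ranged from 60.1 through 70.7 to 80.7 CPM, almost the ctrl range, and its log2 fold change was -0.01 (95% interval -0.18 to 0.15, adjusted p = 0.941). *Cdk5rap2* lay in between. Its dKO-E libraries ranged from 247 CPM through 257 to 285, all 7 below the ctrl median of 294, at -0.15 on the log2 scale (SE 0.06, unadjusted p = 0.0236, adjusted p = 0.105).

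*Wdr62* gave 23.8 CPM at the lowest, 34.0 at the median and 37.0 at the highest in dKO-E, with 5 of 7 libraries above every ctrl library. At 0.26 on the log2 scale (SE 0.12, adjusted p = 0.140) it did not pass. The rest of the members were also short of the threshold, with log2 fold changes of 0.18 for *Stil* (adjusted p = 0.200), 0.15 for *Knl1* (adjusted p = 0.384), 0.13 for *Mcph1* (adjusted p = 0.152), -0.04 for *Cenpj* (adjusted p = 0.877) and -0.14 for *Cep63* (adjusted p = 0.301). *Mcph1* was above its ctrl median in all 7 dKO-E libraries, and *Cep63* below its own in 6 of 7. With 1 library left out, *Cdk5rap2* passed 0.05 without ctrl B (adjusted p = 0.0454), *Mcph1* without ctrl H (adjusted p = 0.0236) and *Wdr62* without dKO-E C (adjusted p = 0.0332).

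The third comparison, dKO-E against cKO-E, tested the difference between the mutants itself, with the same cKO-E libraries as the first. *Wdr62*, *Knl1*, *Cep135*, *Stil*, *Aspm* and *Cep152* were higher in dKO-E by 21.4% to 41.5%. At an FDR of 0.05 these 6 of 10 rose and 0 fell, against 5.59% and 9.42% of the 11746 genes tested, and 0 of 10 passed an FDR of 0.01. Scaling by total counts gave 942 lower and 1064 higher genes in place of 1106 and 657, and 7 members higher. The median log2 fold change was 0.28, beside 0.02 over all genes, and 9 of 10 were above 0. No member's groups were fully apart, against 7.09% of all genes. For 2 of the 6, *Aspm* and *Cep135*, cKO-E had been called lower than ctrl, whereas for *Cep152* cKO-E was at the ctrl level and dKO-E above it.

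*Cep135* had the smallest adjusted p of the members, with 6 of 7 dKO-E libraries above all 5 of cKO-E, and rose by 0.38 (SE 0.10, 95% interval 0.18 to 0.58, adjusted p = 0.0104). *Cep152* rose by 0.28 (SE 0.08, adjusted p = 0.0173), also with 6 of 7 dKO-E libraries above all cKO-E libraries. *Aspm* rose by 0.29 (SE 0.09, adjusted p = 0.0317), with dKO-E A inside the cKO-E range. *Knl1* in dKO-E ranged from 136 CPM in dKO-E A through 204 to 254 in dKO-E G, the widest relative spread of its 3 groups (coefficient of variation 19.3%), and rose by 0.41 (SE 0.12, adjusted p = 0.0250). *Stil* ranged from 68.8 through 71.6 to 101 CPM, the top library again being dKO-E G, and rose by 0.34 (SE 0.10, adjusted p = 0.0269). *Wdr62* had the largest fold change at 0.50 (SE 0.16, adjusted p = 0.0377, and 0.0649 with batch as a covariate), with 5 of 7 dKO-E libraries above all of cKO-E. *Cdk5rap2* (0.13, 95% interval 0.01 to 0.25, adjusted p = 0.146), *Cenpj* (0.14, -0.05 to 0.32, adjusted p = 0.337), *Mcph1* (0.08, -0.04 to 0.20, adjusted p = 0.387) and *Cep63* (-0.10, -0.33 to 0.12, adjusted p = 0.605) did not pass. With sex as a covariate *Cdk5rap2* passed as well (0.19, adjusted p = 0.0323), and 2448 genes were called in place of 1763.

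These calls between the mutants were less stable than those of cKO-E against ctrl. The count of 6 became 1 without cKO-E B or without cKO-E C, 3 without cKO-E A, and 0 without the libraries under 1500000 counts (cKO-E D, dKO-E E and dKO-E G). *Cep135* passed with each single library left out, at an adjusted p of up to 0.0471, and was the only member to do so. *Cep152* lost the call in 2 of the 12 such fits, *Knl1* in 3, *Stil* in 4, *Aspm* in 7 and *Wdr62* in 9. Within batch 1 (3 cKO-E, 4 dKO-E) 1 member passed, *Stil* (0.43, adjusted p = 0.0220), and within batch 2 (2 and 2) none did. The log2 fold changes of the 6 genes were above 0 within both batches, for example at 0.30 and 0.26 for *Aspm*, 0.40 and 0.31 for *Cep135*, 0.44 and 0.34 for *Knl1*, and 0.27 and 0.35 for *Cep152*.

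**Figure D3:**
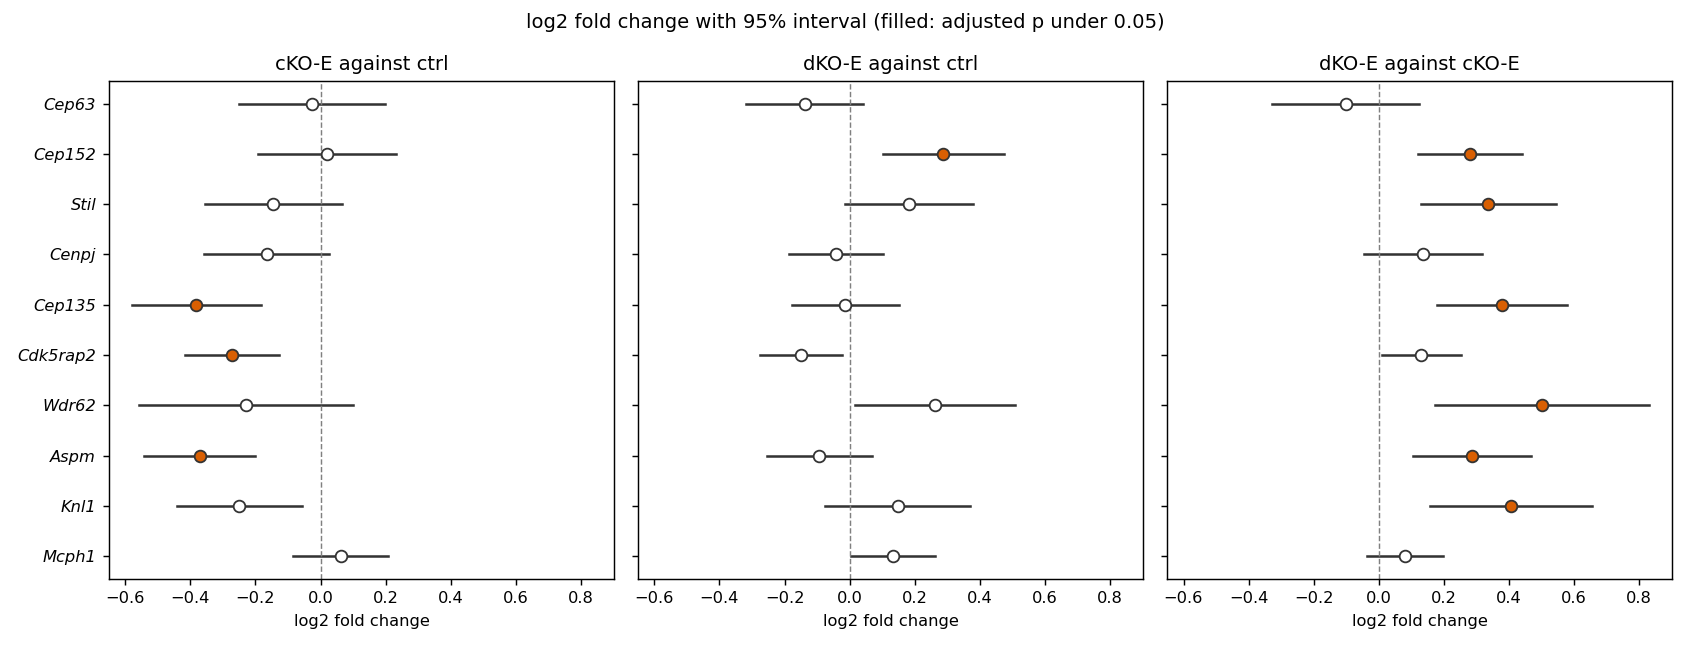
log2 fold change (x axis) of each MCPH gene (y axis) in the 3 comparisons, with points for the estimate, lines for its 95% interval and filled points for an adjusted p under 0.05. *Cep135*, *Cdk5rap2* and *Aspm* are lower in cKO-E than in ctrl, *Cep152* is higher in dKO-E than in ctrl, and 6 genes are above cKO-E in dKO-E, up to 0.50 for *Wdr62*.

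Single libraries were also compared, gene by gene. Against the ctrl mean of each gene, the median over the 10 genes was lowest in cKO-E C, at -0.37 on the log2 scale with 10 of 10 genes below, and highest in ctrl H, at 0.21 with 0 of 10 below. All 5 cKO-E medians were below 0, from -0.37 to -0.11. The 4 batch 1 ctrl libraries had medians of -0.21 to -0.06 and the 3 of batch 2 had 0.03 to 0.21, so the 2 batches of ctrl libraries did not overlap in this median. With batch as a covariate, *Cep152* was higher in dKO-E than in ctrl by 0.33 (adjusted p = 0.00478), and 5 members were called between the mutants, without *Wdr62*. The dKO-E medians lay between -0.08 and 0.14, with members on both sides of the ctrl mean in every dKO-E library, as far apart as -0.29 and 0.59 in dKO-E G. *Cep63* and *Mcph1* went their own way in several libraries, with *Cep63* at its highest cKO-E level in cKO-E B and *Mcph1* below its ctrl mean in 1 cKO-E library only. Summed over the 10 genes, the level was 1120.2 to 1489 CPM in ctrl, 1002 to 1205 in cKO-E and 1184 to 1445 in dKO-E.

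**Figure D4:**
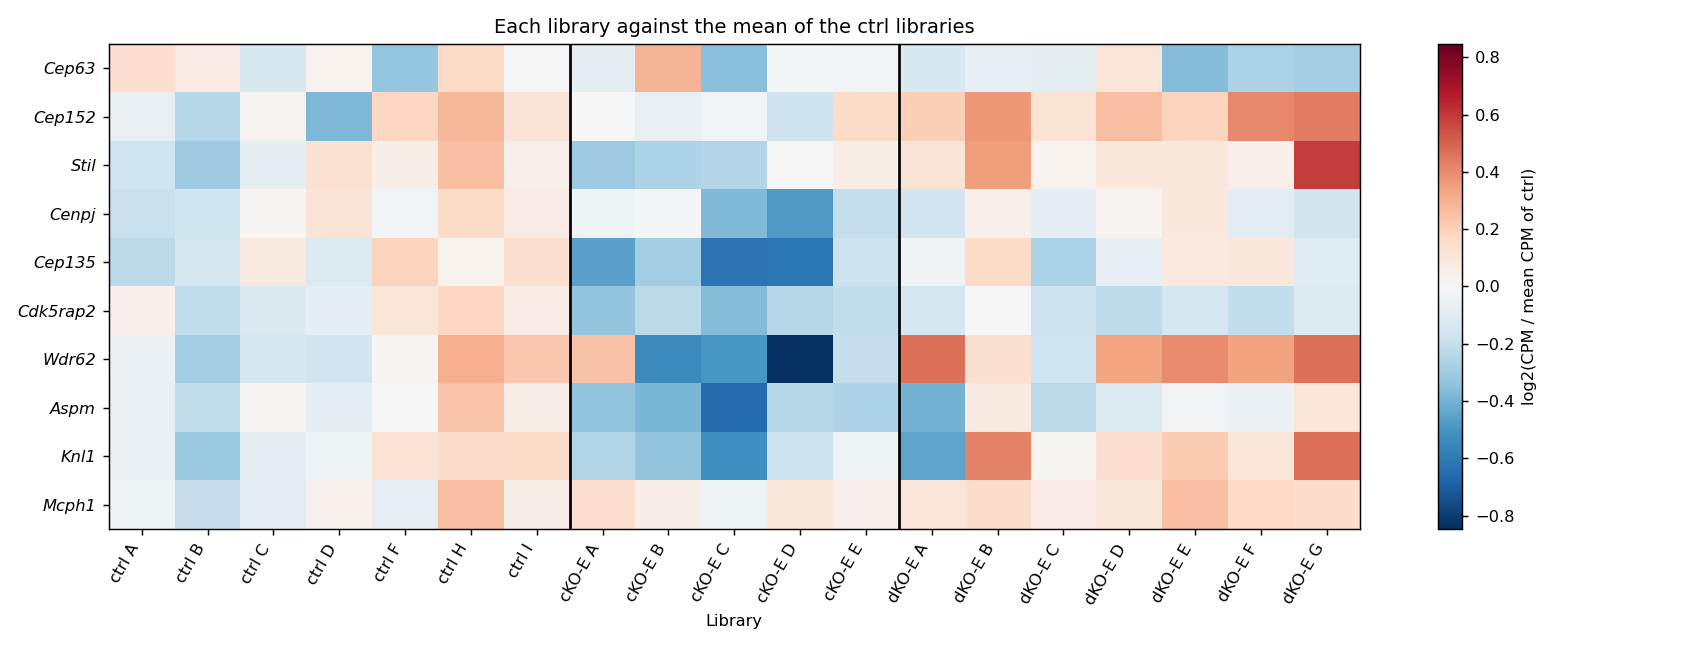
log2 ratio of the CPM of each MCPH gene (rows) in each library (columns) to the mean CPM of that gene in ctrl (blue: lower, red: higher). Vertical lines part ctrl, cKO-E and dKO-E. The column of cKO-E C is blue in all 10 genes, while ctrl H is red in all 10.

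The genes around the MCPH genes in the same structures were counted next, from lists of known components. Those named at an FDR of 0.05 only were chosen after their values were seen. At that FDR, 9.88% of all genes tested fell in cKO-E against ctrl and 7.31% rose. These shares stand beside the list and marker counts of that comparison below. Of 20 other primary microcephaly loci tested, a list not restricted to recessive genes, 4 were lower in cKO-E than in ctrl and 1 was higher. Their median log2 fold change was -0.08. *Cit*, the midbody kinase, fell by 0.38 (SE 0.10, adjusted p = 0.0123), *Wdfy3*, *Lmnb1* and *Sass6* fell by 0.19, 0.20 and 0.27, and *Copb2* rose by 0.18 (adjusted p = 0.0481). Of 22 genes of centriole duplication and length, 2 fell, *Ccp110*, which caps the centriole end (-0.29, adjusted p = 0.0159), and *Sass6*, the cartwheel protein that works with STIL and CEP135 (-0.27, adjusted p = 0.0421). The median over the 22 was -0.07.

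Of 43 genes of pericentriolar material and spindle pole, 8 fell and 2 rose in cKO-E, around a median of -0.05. *Cntln*, a linker between centrioles, passed the FDR of 0.001, falling by 0.63 (SE 0.08, adjusted p = 5.04e-05) from 127 to 161 CPM in ctrl to 74.5 to 106 in cKO-E. *Aurka*, the kinase of spindle pole assembly, fell by 0.51 (adjusted p = 0.00260) and *Pcm1*, the centriolar satellite scaffold, by 0.29 (adjusted p = 0.00166). *Cep57* fell by 0.42 (adjusted p = 0.00146). *Camsap2* (0.20) and *Cep170* (0.23), which bind microtubule ends and the mother centriole, rose. Around *Knl1*, all 19 kinetochore and checkpoint genes tested had a log2 fold change below 0, and 6 fell (among them *Spc25*, *Pmf1*, *Cenpt* and *Spc24*), around a median of -0.19. Of 8 condensin genes, 2 fell (*Smc4* and *Ncaph2*), around a median of -0.19.

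Loss of centrosomes activates p53 through a surveillance pathway. The list tested, 10 genes of centrosome surveillance, is wider than that pathway and also holds the PIDDosome genes. It moved in both directions in cKO-E. *Cdkn1a*, the p53 target that blocks the cell cycle, rose by 3.63 (SE 0.36, adjusted p = 4.33e-06) from 0.900 ± 0.613 to 10.1 ± 1.43 CPM. *Pidd1*, a p53 target whose protein joins the PIDDosome at centrioles, rose by 0.71 (adjusted p = 0.00696). The other two PIDDosome parts fell, *Casp2* by 0.33 (adjusted p = 0.0241) and *Cradd* by 0.22 (adjusted p = 0.0378), and so did *Trim37*, by 0.24 (adjusted p = 0.00332). In dKO-E against ctrl, 5 of 9 fell and 0 rose at an FDR of 0.05, which 15.5% of all genes tested passed in either direction. They included *Trp53*, the gene deleted in dKO-E (-0.36, adjusted p = 0.0196), *Casp2*, lower by 0.46 (adjusted p = 0.000825), and *Cradd*, lower by 0.37 (adjusted p = 0.000482). For *Trp53* the difference between the mutants was -0.18 (adjusted p = 0.322) and did not pass, so its counts do not check the deletion. Between the mutants *Cdkn1a* and *Pidd1* were lower in dKO-E, by 3.69 and 0.63 on the log2 scale, and *Usp28*, which stabilises p53 after centrosome loss, was higher by 0.27 (adjusted p = 0.0218).

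In dKO-E against ctrl the other lists were split, beside 15.5% of all genes tested called in either direction at an FDR of 0.05. Of the 20 other primary microcephaly loci, 4 rose and 1 fell, *Wdfy3* by 0.31 (adjusted p = 0.000221). Of the 22 centriole genes 1 rose and 3 fell, of which *Btrc*, whose ligase complex limits PLK4, fell by 0.36 (adjusted p = 0.000635). Of the 43 pericentriolar genes 3 rose and 3 fell, including *Akap9* by 0.70 (adjusted p = 9.28e-06) and *Cntln* by 0.55 (adjusted p = 9.01e-05), and of 19 kinetochore genes 2 fell, including *Cenpt* by 0.82 (adjusted p = 0.000230). Of the condensin genes 1 of 8 rose. The ctrl libraries were those used for cKO-E, where the log2 fold changes of *Cntln* and *Cenpt* were -0.63 and -0.67.

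Between the mutants, rises outnumbered falls in the mitotic lists, while 5.59% of all genes tested rose and 9.42% fell at an FDR of 0.05. In dKO-E, 7 of 20 other primary microcephaly loci rose and 0 fell, including *Cit* by 0.40 (adjusted p = 0.00456) and *Ncapd2* by 0.27 (adjusted p = 0.00965). Of condensin 5 of 8 rose and 0 fell, of kinetochore genes 4 of 19 and 0, including *Bub1b* by 0.40 (adjusted p = 0.00240), and of centriole genes 3 of 22 and 0, including *Cep76* by 0.42 (adjusted p = 0.00821). Of the pericentriolar genes 10 of 43 rose and 3 fell, with *Ninl*, *Haus6* and *Kif11* up by 0.33, 0.38 and 0.34 and *Akap9* down, at -0.36. The list medians were 0.20, 0.27, 0.25, 0.12 and 0.09, beside 0.28 for the 10 members and 0.02 over all genes. The lists are not separate, since 3 condensin genes, 2 kinetochore genes and *Sass6* are also among the other primary microcephaly loci.

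**Figure D5:**
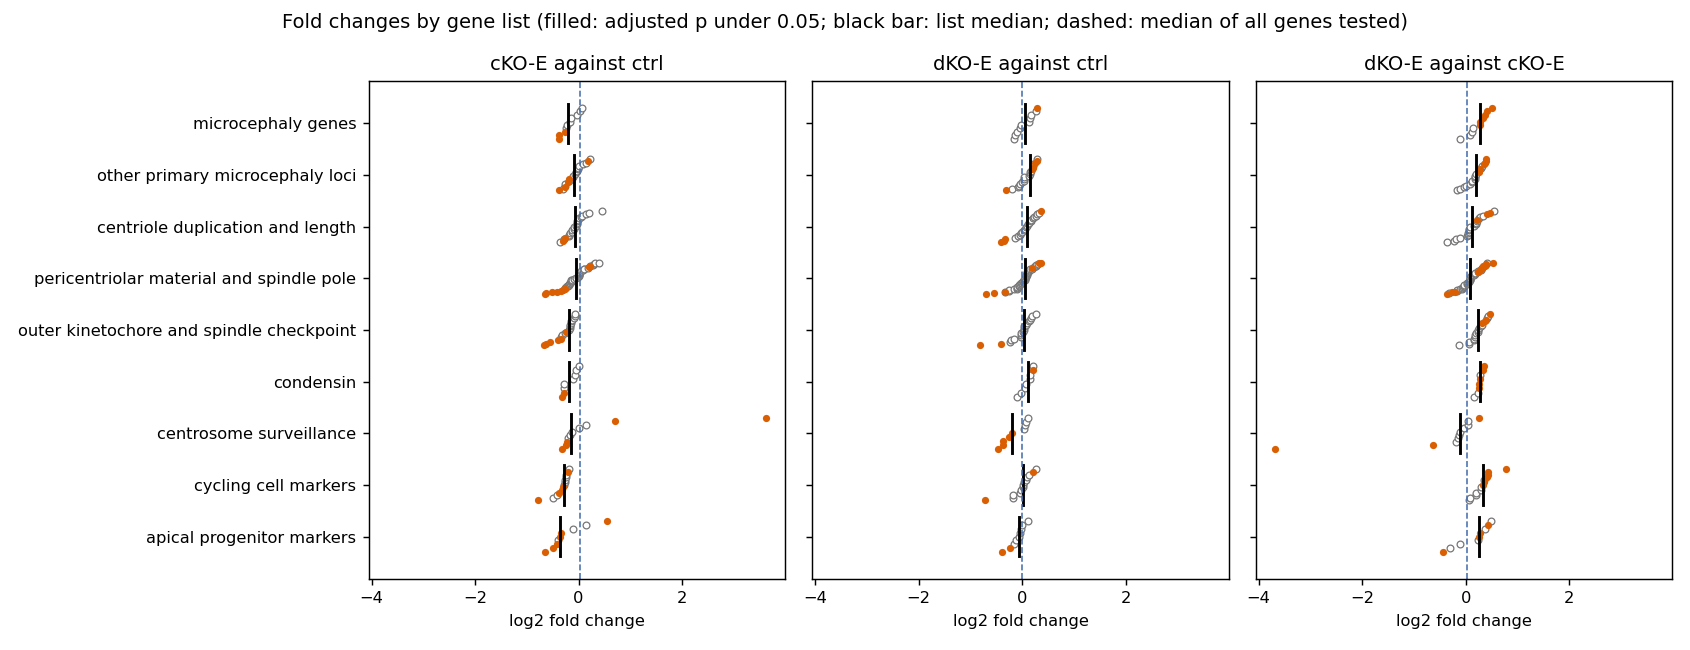
log2 fold change (x axis) of every gene tested in the MCPH set and in 8 further lists (y axis) for the 3 comparisons. Filled points have an adjusted p under 0.05, black bars are list medians and the dashed line is the median of all genes tested. The medians of the MCPH genes and the cycling cell markers lie below the dashed line in cKO-E against ctrl, at -0.20 and -0.28, and above it in dKO-E against cKO-E, at 0.28 and 0.34.

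Markers of cycling cells moved with the members. All 13 had a log2 fold change below 0 in cKO-E against ctrl and 5 fell, *Mcm2* by 0.79 (adjusted p = 0.000434), *Mki67* by 0.30 (adjusted p = 0.00711), *Mcm6*, *Cenpa* and *Kif20b*. Their median was -0.28, and their summed level was 1836 to 2352 CPM in ctrl, 1437 to 1894 in cKO-E and 1705 to 2426 in dKO-E. Between the mutants 6 of 13 rose and all 13 were above 0. The 10 MCPH genes together amounted to 58.8% to 66.6% of this sum in ctrl, 63.6% to 71.9% in cKO-E and 59.6% to 69.4% in dKO-E. This ratio pools members called lower in cKO-E with members that were not. The part of cycling cell number in the *Aspm*, *Cep135* and *Cdk5rap2* results was not tested.

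Other cell markers also differed between the groups. Of 9 apical progenitor markers tested in cKO-E against ctrl, 5 fell (*Prom1*, *Notch1*, *Nes*, *Hes1*, *Pax6*) and *Fabp7* rose, and their sum was 1426 to 1639 CPM in ctrl, 1169 to 1517 in cKO-E and 1307 to 1524 in dKO-E. Of 5 intermediate progenitor markers, 2 fell (*Neurog2*, *Eomes*), with sums of 343 to 413, 266 to 351 and 277 to 419.8 CPM. The 10 microglia markers summed to 6.49 to 17.0 CPM in ctrl, 31.5 to 39.6 in cKO-E and 5.05 to 11.0 in dKO-E, the 3 that could be tested rose in cKO-E, and none of the 10 was at 0 in all libraries of a group. The 10 interneuron and ganglionic eminence markers summed to 9.67 to 87.3, 67.9 to 122 and 30.4 to 72.1 CPM, with *Gsx2* at 0 throughout ctrl and cKO-E and *Nkx2-1* at 0 throughout cKO-E. Of 4 tested, all above 0 in cKO-E against ctrl, *Dlx1* rose (adjusted p = 0.0263), and all 4 fell in dKO-E against cKO-E, by 0.64 to 1.43 on the log2 scale. Of 7 excitatory neuron markers tested, 1 rose in cKO-E against ctrl and 4 fell in dKO-E against cKO-E, around a median of -0.44. The part of these cells in the values of the 10 genes was not tested.

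*Knl1* lies on chromosome 2, 267.5 kb from *Ino80*, the deleted gene, and *Cep152* lies on the same chromosome at 6085.4 kb. Of 43 annotated genes within 500 kb of *Ino80*, 20 were tested. In cKO-E against ctrl 4 of the 20 fell and 0 rose at an FDR of 0.05, against 9.88% and 7.31% of all genes tested. Of the 4, *Ivd* (-0.64, adjusted p = 0.000712) and *1700020I14Rik* (-0.40, adjusted p = 0.000416) passed 0.001. The others were *Dnajc17* and *Rpap1*. In dKO-E, set against the same ctrl libraries, *Ivd* (-0.62), *Rpap1* (-0.55), *Dnajc17* (-0.53) and *1700020I14Rik* (-0.50) fell and *Zfyve19* rose by 0.44, and between the mutants *Knl1* was the only one of the 20 to pass. *Knl1* did not pass against ctrl in either mutant.

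Across the 19 libraries the genes most like the mean of the 10 members were *S100pbp* (Pearson r = 0.937), *Bub1b* (0.936), *Tmem243* (0.933), *Clspn* (0.933) and *Erf* (0.930), out of 9288 genes with at least 10 CPM on average. The closest to *Aspm* were *Ckap2l* (0.950), *Pole* (0.889) and *Cenpf* (0.887). *Knl1* was closest to *Srsf6* (0.929), *S100pbp* (0.922) and *Mki67* (0.913), and *Cep152* to *Zgrf1* (0.934), *Tube1* (0.886) and *Brip1* (0.876). For *Cep135* they were *Clspn* (0.877), *E2f2* (0.876) and *Pif1* (0.871), for *Stil* *Pds5a* (0.892), *Kif24* (0.882) and *Zranb3* (0.878), and for *Wdr62* *Ccdc34* (0.913), *Tmem243* (0.876) and *Bri3* (0.866). These values describe log2 levels that share the 3 groups, the batches and the depth of each library.

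Some members share exon sequence with neighbours, and the strand setting of the counting is not given in the sources used here. *Wdr62* shares 264 exon bases (4.60% of its own) with *Thap8* on the opposite strand, *Cep63* shares 239 (2.49%) with *Anapc13* and *Mcph1* shares 190 (2.43%) with *Gm16725*. *Cdk5rap2* shares 365 bases (2.81%) with the pseudogene *Ywhaq-ps3* on its own strand. Reads in these stretches cannot be assigned with certainty.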

How the data were processed

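Total RNA of 19 dissected E13.5 cortices was depleted of ribosomal RNA, made into Click-seq libraries and sequenced. The authors trimmed reads with cutadapt (1.13), aligned them to GRCm38/mm10 with STAR (2.5.2a), collapsed them by UMI with UMI-tools (0.5.3) and counted them per gene with HTSeq (0.6.1p1, intersection-nonempty mode). The deposited values are these counts per GENCODE gene, not normalized. Rows that name no gene, 23.3% to 31.9% of each library's total, were left out. Gene names, positions and exon lengths came from GENCODE M21 (51719 of 51912 identifiers matched, 47734 of them with the same version, and 9 of the 10 members; *Cenpj* differed in version).

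Groups came from the labelled genotype. Each comparison was fitted on its own libraries with edgeR (4.0.16, R 4.3.3): filterByExpr with a minimum count of 10, TMM factors, glmQLFit and glmQLFTest, and Benjamini-Hochberg adjustment over all genes tested. The FDR was 0.001 against ctrl, as in the study, with 0.05 as a second rule, and 0.05 between the mutants. CPM used TMM factors over all 19 libraries, and likeness used log2(CPM + 0.5). Alternatives were DESeq2 (1.42.0), the likelihood ratio test, other scalings and filters, covariates, blocks, single batches and leaving out libraries. The members and the gene lists were chosen with earlier results of these data known. Named genes were all 10 members, *Ino80* and *Trp53*, some of the called genes of each list, called genes within 500 kb of *Ino80*, and the genes most like the members. The genes named from a list follow no fixed rank or number. No 2 libraries held identical counts. Labels put some embryos of different genotype in 1 litter, and the correlation across genes of such pairs, as deviations from group means, ran from -0.13 to 0.44 for cKO-E with ctrl and from -0.53 to 0.45 for dKO-E with ctrl. The member with the lowest count was *Wdr62*, at 12 in 1 library. 3 counts corresponded to 0.370 to 3.73 CPM. The 95% intervals are of the estimated log2 fold change between groups. They take libraries as independent, although the 7 dKO-E libraries came from 2 litters.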

Additional observations from a re-analysis of the deposited data

How the results depend on the processing

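Over the 10 genes, 251 of 270 alternative log2 fold changes for cKO-E against ctrl kept direction and side of the FDR of 0.001, and 275 of 290 for dKO-E against ctrl. Since 0 members passed 0.001 in the reported fits, these counts do not measure the calls at 0.05. At 0.05, *Aspm* and *Cep135* each passed in 26 of 27 alternatives for cKO-E against ctrl and *Cdk5rap2* in 25. *Cep152* passed in 20 of 29 for dKO-E against ctrl. Between the mutants 210 of 260 kept direction and side of 0.05, 47 lost the call and 2 gained it (*Cdk5rap2* with total counts only and with sex as a covariate). No litter block was possible there, since the mutants shared no litter. The 6 called under an alternative for cKO-E against ctrl were all *Aspm*. At an FDR of 0.05, 3 members were called in cKO-E and 1 in dKO-E against ctrl, out of 2004 and 1759 genes. For cKO-E against ctrl, with 394 genes and 0 members called in the reported fit, 1 member was called with the likelihood ratio test (836 genes in all), DESeq2 (718), no filter on low counts (658), batch as a covariate (659), sex as a covariate and the litter block (198), and batch 2 alone called 30 genes. For dKO-E against ctrl, with 294 genes called in the reported fit, the likelihood ratio test called 615, DESeq2 546, the litter block 37, batch 1 alone 87, batch 2 alone 14 and the fit without libraries under 1500000 counts 178. With batch as a covariate, 281 genes were called for dKO-E against ctrl, and 1649 genes and 5 members between the mutants. Between the mutants an FDR of 0.01 called 888 genes and 0 members, batch 1 alone 1 member, batch 2 alone 305 genes and 0 members, and the fit without libraries under 1500000 counts 0 members. Leaving out 1 library gave 235 to 401 genes for cKO-E against ctrl (lowest without cKO-E C, with 256 and 251 without cKO-E A and B), 190 to 305 for dKO-E against ctrl (lowest without dKO-E F), and 1135 to 1830 genes with 1 to 6 members between the mutants (fewest genes without cKO-E C). The cause was not tested.

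The reversed values were all of fold changes close to 0. In cKO-E against ctrl, *Cep63* was at 0.00713 with total counts only, 0.0133 with the litter block and 0.00376 in batch 2, and between -0.137 and 0.0532 with 1 library left out. *Cep152* was at -0.0195 with sex as a covariate, -0.00755 with the litter block, -0.13 in batch 2 and between -0.0356 and 0.0720 with 1 library left out, and *Mcph1* was at -0.0153 with the litter block and -0.0261 in batch 2. In dKO-E against ctrl, *Cep135* was at 0.00991 with upper quartile factors, 0.0815 with total counts only, 0.0109 with sex as a covariate, 0.119 with the litter block, 0.0322 in batch 1 and between -0.0497 and 0.0368 with 1 library left out, and *Cenpj* was at 0.0522 with total counts only, 0.109 with the litter block and 0.0101 in batch 1. Between the mutants, *Cep63* lay between -0.18 and 0.00901 with 1 library left out.

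Deviations of libraries with the same replicate letter were correlated across genes. The values ran from -0.03 to 0.13 (cKO-E with ctrl), -0.53 to 0.28 (dKO-E with ctrl) and -0.14 to 0.26 (dKO-E with cKO-E). They cannot tell whether the letters mark pairs, since littermates of dKO-E and ctrl ran from -0.53 to 0.45. For letters A and B, the ctrl and dKO-E libraries were themselves from litter 1. With the replicate block, dKO-E against ctrl called 37 genes, *Cep135* was at 0.00726 there, 2 members were called between the mutants (*Wdr62* and *Cep135*), and *Cdk5rap2* in cKO-E against ctrl had an adjusted p of 0.0635.

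Depth limits *Wdr62* most, and *Cep63*, *Cenpj* and *Cep135* next, with 36 to 38 counts in their shallowest libraries. The 95% intervals reached 0.12 to 0.33 on either side of a member's log2 fold change. Batch 3 held dKO-E only, and dKO-E came from 2 litters.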

Other observations

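All 7 markers of postmitotic excitatory neurons tested had a log2 fold change below 0 in dKO-E against ctrl and against cKO-E. Of these, *Stmn2*, a tubulin-binding growth cone protein, rose in cKO-E against ctrl by 0.49 (adjusted p = 0.00237) and 0 fell. In dKO-E against ctrl 2 fell, *Map2* by 0.38 (adjusted p = 0.000696) and *Bcl11b* by 0.42 (adjusted p = 0.0370). Between the mutants 4 fell in dKO-E, *Stmn2* by 0.71 (adjusted p = 7.26e-05), *Map2* by 0.44 (adjusted p = 0.000168), *Tbr1* by 0.48 (adjusted p = 0.00131) and *Dcx* by 0.54 (adjusted p = 0.00139). Their summed level was 2753 to 4076 CPM in ctrl, 3357 to 4039 in cKO-E and 2275 to 3216 in dKO-E. These are edgeR quasi-likelihood values, as for the members.

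Markers of vessels, meninges and blood varied between libraries within each group. The 6 endothelial markers summed to 39.1 to 75.0 CPM in ctrl, 49.3 to 67.7 in cKO-E and 38.4 to 90.2 in dKO-E, and 0 of 5 tested passed an FDR of 0.05 in any comparison, with 1 of 5 at an unadjusted p below 0.05 in dKO-E against ctrl. Meningeal and mesenchymal markers summed to 2.85 to 65.8, 1.24 to 7.47 and 2.99 to 67.3 CPM, and none passed the filter on low counts. Red blood cell markers summed to 43.1 to 116, 52.7 to 80.7 and 29.5 to 107.7 CPM, and 0 of the 2 or 3 tested in a comparison passed an FDR of 0.05 or an unadjusted p below 0.05.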
